A study of Mus musculus with 6 samples.

Results

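Heart muscle transcripts can be found in mouse lung RNA because, in rodents, the heart's muscle extends outward along the wall of the pulmonary veins into the lung. Its cells are built like atrial myocytes, with the atrial forms of the contractile proteins, and this venous muscle is known as a source of ectopic beats in atrial fibrillation. Contraction in such cells starts with calcium released from the sarcoplasmic reticulum through the ryanodine receptor. Calcium binds the troponin complex on the actin filament and lets myosin pull on it. Atrial myocytes also secrete atrial natriuretic peptide, a hormone that lowers blood volume and pressure.

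The 10 genes described here are known from that muscle and were chosen by name, with earlier results of these data known, under a rule that uses no measured value. They are Myh6, Myl7, Myl4 and Actc1 of the myosin and actin filaments, Tnnt2, Tnni3 and Tnnc1 of the troponin complex, Ryr2 and Sln of calcium handling, and the hormone gene Nppa. All 10 were among the 25860 genes in the count table, and all 10 passed the minimum of 10 counts that left 17231 genes for testing.

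The RNA came from lung that looked normal in untreated mice 12 months old, 3 RAG1-/- (replicates 1 to 3) and 3 RAG1-/- Sgo1-/+ (replicates 4 to 6), in 1 library each. Both groups lack RAG1, which is needed to assemble antigen receptor genes, a loss known to leave mice without mature T and B cells, and both genotypes came from the F2 generation of a cross of RAG1-/- with Sgo1-/+ mice. The groups differ in Sgo1, where RAG1-/- Sgo1-/+ mice carry 1 disrupted copy of the gene for Shugoshin-1, a protector of chromosome cohesion. No sorting of cells is described for this tissue, and which part of the lung was sampled is not given.

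Total counts on genes ran from 3205822 to 9366774 per library, so that 3 counts, taken as the smallest amount detected, were worth 0.320 to 0.936 CPM (counts scaled to a library total of 1000000). Sgo1 had 6, 2 and 4 counts against 6, 0 and 2 in RAG1-/- Sgo1-/+, too few to check the genotype. Rag1 had 8 to 24 counts in every library, and the counts do not show whether they fall outside the deleted part. Lung epithelial markers summed to 77694 to 99506 CPM in every library. The immunoglobulin constant gene Igkc, a marker of B lineage cells, had 1853 counts in the library labelled RAG1-/- replicate 2 and at most 8 in any other library, which goes against that library's label. RAG1-/- Sgo1-/+ replicate 6 stood apart on the first principal component of all tested genes (32.7% of the variance), at 68.4 against -19.7 to -5.58 for the other 5 libraries. In RAG1-/- replicate 1, 8 adipocyte markers summed to 1205 CPM, against 95.4 to 187 in the other libraries.

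Promoters of the genes were searched for letters that regulators of transcription are known to bind. RefSeq windows from 250 bases before to 50 bases after the annotated start of transcription (GRCm38.p6) were found for 9 of the 10 genes, as 10 windows. The CArG box, the site of serum response factor in many actin and myosin genes, was searched by name on both strands and found in the windows of Actc1 and Myl7, 2 of 10, against 1.63% of 32851 windows of the same length. GATAA, the core of GATA factor sites, was present in 4 of 10 (25.4% of all windows), CATTCC, the core of TEAD sites, in 4 of 10 (14.7%), and TATAAA in 3 of 10 (13.6%). The MEF2 site, searched by name, was in 0 of the 10 windows and in 3.19% of all. The windows of Myl4 and Ryr2, and a further window of Tnnt2, held no match to any searched motif. The 3 windows below are shown because they hold both CArG matches and the hormone gene. Each reads 5′ to 3′ on the gene's own strand, with every match to a searched motif in capitals, and no matches overlapped.
Actc1, chr2:114052826-114053125, minus strand.
Actc1: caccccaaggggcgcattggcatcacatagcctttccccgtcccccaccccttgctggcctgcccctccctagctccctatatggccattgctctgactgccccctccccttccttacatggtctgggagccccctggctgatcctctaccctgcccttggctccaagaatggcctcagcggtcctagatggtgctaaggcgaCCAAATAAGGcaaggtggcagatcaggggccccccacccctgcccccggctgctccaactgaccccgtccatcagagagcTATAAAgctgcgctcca
Myl7, chr11:5898733-5899032, minus strand.
Myl7: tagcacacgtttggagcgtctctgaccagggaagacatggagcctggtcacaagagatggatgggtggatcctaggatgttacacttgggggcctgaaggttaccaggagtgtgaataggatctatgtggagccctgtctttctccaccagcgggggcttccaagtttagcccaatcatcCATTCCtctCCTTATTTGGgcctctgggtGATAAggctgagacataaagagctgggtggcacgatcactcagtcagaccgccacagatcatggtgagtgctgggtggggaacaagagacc
Nppa, chr4:148000472-148000771, plus strand.
Nppa: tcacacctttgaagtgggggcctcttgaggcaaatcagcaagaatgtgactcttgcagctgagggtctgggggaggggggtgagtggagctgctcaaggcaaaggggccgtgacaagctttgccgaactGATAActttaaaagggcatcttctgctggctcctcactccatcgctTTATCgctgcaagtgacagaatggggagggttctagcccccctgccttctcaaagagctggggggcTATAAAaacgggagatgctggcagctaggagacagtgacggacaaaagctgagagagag
In Actc1 the CArG match lay 47 to 38 bases before the annotated start, and in Myl7 61 to 52 bases before it. The TATAAA match of Actc1 lay 33 to 38 bases after the annotated start, and whether transcription starts there was not tested. Myl7 also held a CATTCC and a GATAA match on either side of its CArG box, and Nppa held 2 GATAA matches and a TATAAA but no CArG box. A match of letters is a description of the sequence and not evidence of a bound site.

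Each of the 10 genes was detected in every library of both groups, from 2.02 CPM for Tnnc1 in the library labelled RAG1-/- replicate 2 to 60.5 CPM for Actc1 in RAG1-/- Sgo1-/+ replicate 6. Summed over the 10 genes, the level was 246, 155 and 297 CPM in RAG1-/- and 173, 190 and 278 CPM in RAG1-/- Sgo1-/+, a 1.92-fold range that crossed the genotypes. Group means of this sum were 232.8 ± 72.4 and 213.6 ± 56.4 CPM (mean ± SD, n=3 each). In whole tissue, fewer muscle cells and less RNA per muscle cell cannot be told apart.

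**Figure D1:**
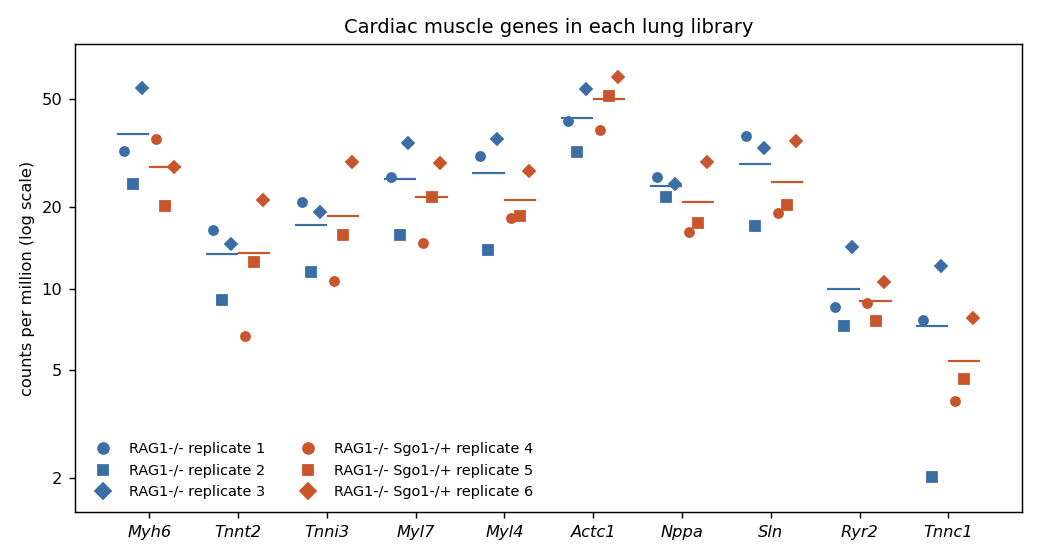
CPM (log scale) of the 10 cardiac muscle genes in each of the 6 libraries, with RAG1-/- in blue, RAG1-/- Sgo1-/+ in orange and lines at the group means (n=3). The groups overlapped for all 10 genes, and the widest spread was that of Tnnc1, from 2.02 to 12.1 CPM.

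Levels of different genes can be compared only per length of transcript. Divided by exon length, the mean level over the 6 libraries was highest for Myl7 (40.0 CPM per kb), the atrial regulatory light chain, and for Actc1 (31.5), the cardiac actin. Nppa (26.0), Sln (20.4), Myl4 (19.99) and Tnni3 (19.6) came next. Tnnt2 (10.6), Tnnc1 (8.80) and Myh6 (5.33) were lower, and Ryr2 was lowest at 0.522 CPM per kb. The order of neighbours changed between libraries. Actc1 exceeded Myl7 in RAG1-/- Sgo1-/+ replicate 4 (26.2 against 25.0 CPM per kb), and Nppa exceeded Actc1 in replicate 1 (29.9 against 28.1). Ryr2, at 0.780 CPM per kb or less, was below every other gene in every library.

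Among the filament proteins, Myh6 encodes the fast alpha-myosin heavy chain of the atrium. Its level was 32.2, 24.2 and 55.1 CPM in RAG1-/- and 35.8, 20.2 and 28.1 CPM in RAG1-/- Sgo1-/+. The highest library was RAG1-/- replicate 3 and the other 5 were interleaved. The log2 fold change (RAG1-/- Sgo1-/+ over RAG1-/-) was -0.41 (SE 0.30, edgeR adjusted P=0.859), and the 95% interval ran from -1.09 to 0.26. Myl7 was at 25.8, 15.8 and 34.4 CPM against 14.7, 21.9 and 29.0 CPM, with a log2 fold change of -0.24 (SE 0.30). The partner light chain of the atrium, Myl4, was at 30.9, 13.9 and 35.6 CPM against 18.2, 18.5 and 27.1 CPM, with a log2 fold change of -0.36 (SE 0.31). For both light chains RAG1-/- replicate 3 was highest, and the library labelled RAG1-/- replicate 2 lay among the lowest 2 libraries. Actc1, the main actin of heart muscle, was at 41.4, 31.9 and 54.8 CPM against 38.6, 51.5 and 60.5 CPM. It was 1 of only 2 of the genes with a fitted value above 0 (log2 fold change 0.22, SE 0.22, 95% interval -0.26 to 0.71), and the groups overlapped.

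The troponin complex is the calcium switch of the thin filament. Tnnt2, which anchors the complex on tropomyosin, was at 16.4, 9.09 and 14.7 CPM in RAG1-/- and 6.67, 12.6 and 21.2 CPM in RAG1-/- Sgo1-/+. Tnni3, the inhibitory subunit, was at 20.8, 11.5 and 19.2 CPM against 10.7, 15.7 and 29.3 CPM. Both genes were lowest in RAG1-/- Sgo1-/+ replicate 4 and highest in RAG1-/- Sgo1-/+ replicate 6, so that 1 group held both ends of the range. Their log2 fold changes were -0.035 (SE 0.38) and 0.071 (SE 0.35). Tnnc1, the calcium-binding subunit, had 72, 10 and 80 counts against 19, 25 and 25 counts, equal to 7.69, 2.02 and 12.1 CPM against 3.84, 4.63 and 7.80 CPM. With the fewest counts of the set (231 in all), it had the widest interval, -1.69 to 0.75 around a log2 fold change of -0.47 (SE 0.55).

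Calcium release and uptake were represented by Ryr2, the release channel, and Sln, the small atrial inhibitor of the calcium pump. Ryr2 was at 8.54, 7.27 and 14.2 CPM in RAG1-/- and 8.89, 7.59 and 10.6 CPM in RAG1-/- Sgo1-/+, with a log2 fold change of -0.16 (SE 0.31).  Sln was at 36.7, 16.97 and 33.0 CPM against 19.0, 20.4 and 34.9 CPM (log2 fold change -0.26, SE 0.31). In each of these genes a library of either group was among the highest 2. Nppa, the precursor of atrial natriuretic peptide, was at 25.8, 21.8 and 24.4 CPM against 16.2, 17.4 and 29.3 CPM. Its 3 RAG1-/- libraries lay close together, between the extremes of the other group (log2 fold change -0.22, SE 0.23, 95% interval -0.74 to 0.30). Of the 50-base windows in Nppa transcripts, 53.4% also occur, on the opposite strand, in the antisense gene Gm13054, and without strand the reads of both cannot be told apart.

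By edgeR's quasi-likelihood test, 0 of the 10 genes were called at an adjusted P under 0.05 and a 2-fold difference, where 0% of the 17231 tested genes were called and the smallest adjusted P was 0.832. At an unadjusted P under 0.05 there were 0 of 10, against 5.66% (976 genes) of all tested genes. The groups did not overlap for 0 of 10, against 11.8% of all tested genes. Of the 10 fitted values 8 were below 0, with a median of -0.23 beside 0.034 over all genes tested, and the adjusted P ran from 0.859 to 0.993. The intervals of 3 genes (Myh6, Myl4 and Tnnc1) reached below a 2-fold decrease, and none reached a 2-fold increase. DESeq2 also called 0 of the 10 and 1 gene in the whole table, Awat1. Exact permutation tests of CPM gave P=0.5 to P=1 (two-sided), where 3 against 3 cannot go below 0.1.

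**Figure D2:**
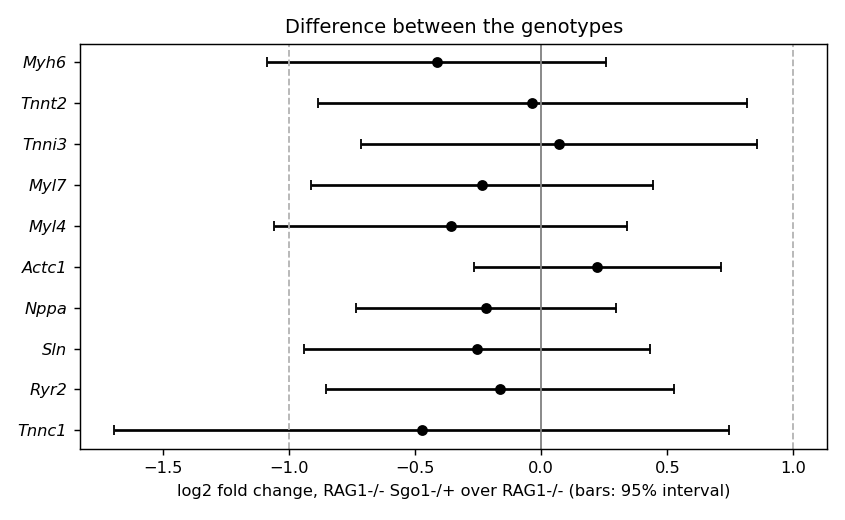
Log2 fold change of each gene in RAG1-/- Sgo1-/+ relative to RAG1-/- (points) with the 95% interval of the edgeR fit (bars), a solid line at 0 and dashed lines at a 2-fold difference. Every interval crosses 0, from -1.69 at the lowest to 0.86 at the highest.

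Single libraries decided the sign of several of these values. Without the library labelled RAG1-/- replicate 2, whose Igkc counts go against its label, the log2 fold change was -0.65 for Myl4 (unadjusted P=0.0168, adjusted P=0.987). The groups no longer overlapped for this gene. In that fit 593 genes of the whole table, and 1 of the set, had an unadjusted P under 0.05. Tnni3 turned to -0.14. Without RAG1-/- Sgo1-/+ replicate 6, which stood apart on the first component, Nppa was at -0.52 (unadjusted P=0.0180, adjusted P=0.8997) with the groups apart, and Tnni3 was at -0.39. There, 850 genes of the whole table, and 1 of the set, had an unadjusted P under 0.05. Groups separate more readily with fewer libraries, and the share of all genes with groups apart was not computed for these fits. Without RAG1-/- replicate 3, Myh6 moved from -0.41 to -0.022, and the values of Tnnt2 (0.031), Myl7 (0.043), Ryr2 (0.17) and Tnnc1 (0.078) moved above 0. Sln moved from -0.26 to -0.045 without RAG1-/- replicate 1, and Actc1 from 0.22 to 0.058 without replicate 2. No gene of the set was called when any single library was left out.

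The differences between libraries were shared by the genes. RAG1-/- replicate 3 was among the 3 highest libraries for 10 of the 10 genes, RAG1-/- Sgo1-/+ replicate 6 for 9 and RAG1-/- replicate 1 for 8. The library labelled RAG1-/- replicate 2 was among the lowest 2 for 9 genes and RAG1-/- Sgo1-/+ replicate 4 for 8. High and low libraries were thus found in both genotypes. The SD of log2 CPM over the 6 libraries had a median of 0.501 for the 10 genes, beside 0.268 for the 7104 genes with total counts in the same range (231 to 1571). The highest library exceeded the lowest by 1.81-fold for Nppa, at the least, and by 5.99-fold for Tnnc1, at the most.

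Over the 6 libraries, Pearson correlations of log2 CPM between genes of the set were above 0 for 45 of 45 pairs, with a median of 0.75, and 27 pairs were at 0.7 or above. These are descriptions on 6 shared libraries and their totals. Tnnt2 and Tnni3, partners in the troponin complex, had the highest of the 45 at 0.98. At the other end Myh6 and Tnnt2 were at 0.049. Relative to its mean log2 CPM, Myh6 was at 0.21 and -0.14 in RAG1-/- Sgo1-/+ replicates 4 and 6, where Tnnt2 was at -0.90 and 0.76. Myh6 and Ryr2, the 2 members with the longest transcripts, stood at 0.21 and -0.06 in that library, where the other 8 were at -0.23 or lower. In the same library genes with exons of 6 kb or more had a median deviation of 0.080 and genes of 2 kb or less -0.057. The part of transcript length in the pattern of Myh6 and Ryr2 was not tested.

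**Figure D3:**
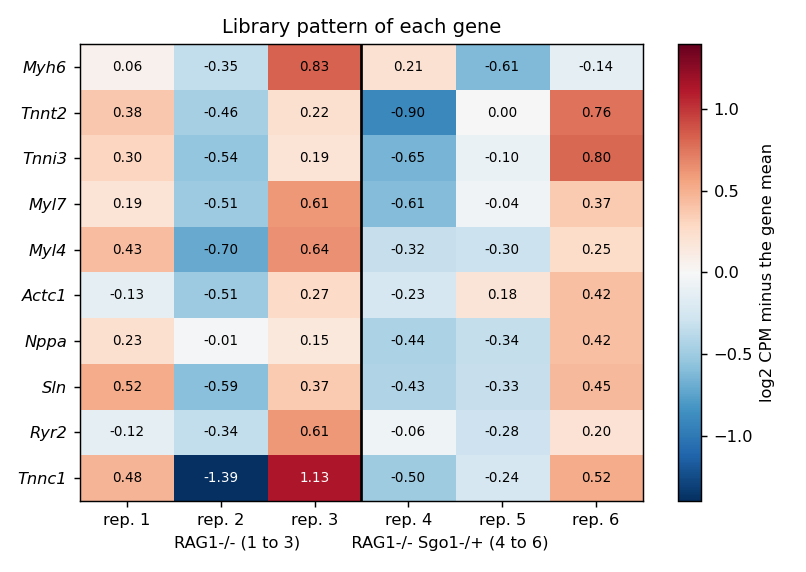
Deviation of log2 CPM from each gene's mean over the 6 libraries, by gene (rows) and replicate (columns), red above and blue below the mean. Values in replicate 2 are below 0 for all 10 genes, and values in replicate 3 are above 0 for all 10, although both are RAG1-/-.

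The genes with the most similar pattern among 14430 with a mean of at least 2 CPM were led by Mb, which encodes myoglobin, the oxygen store of heart and slow skeletal muscle. Mb was at 57.7, 29.5 and 62.7 CPM in RAG1-/- and 33.9, 35.2 and 63.6 CPM in RAG1-/- Sgo1-/+, a correlation of 0.99 with the mean of the 10 genes over 6 libraries. Mybpc3, cardiac myosin-binding protein C, was at 4.38, 2.02 and 8.78 CPM against 2.02, 2.96 and 8.11 CPM (0.97). Both were low in replicates 2 and 4 and high in replicates 3 and 6, like the set itself. The other 8 of the 10 nearest were Cox5b, Dera, Pgls, AU041133, a gene listed only by its Entrez identifier 100502708, Pef1, Bhlha15 and Fut9, at 0.96 to 0.98. Among 43 other heart genes of the lists written for this comparison, 10 (23.3%) correlated at 0.7 or above, against 3.94% of all 14430 genes. They included Casq2, the calcium store of the cardiac reticulum (0.95), Tcap of the Z disc (0.93), Srl (0.92), Ckm, the muscle creatine kinase (0.83), and Pln, the pump inhibitor phospholamban (0.75).

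Related isoforms and paralogs tell atrial muscle from ventricular and skeletal muscle, and most of them were at or near 0. Myl2, the ventricular regulatory light chain, had 0 counts in all 6 libraries beside 831 for Myl7, and 3 counts would be 0.361% of the pair. Tnni1, the fetal and slow skeletal troponin I, had 2 counts in all beside 611 for Tnni3. Nppb, the natriuretic peptide gene that is prominent in stressed ventricle, had 4 beside 779 for Nppa. The fast skeletal troponin C gene Tnnc2 was at 0 beside 231 counts of Tnnc1, and skeletal actin Acta1 had 12 counts, all in 2 libraries, beside 1571 of Actc1. Myl4 made up 94.1% to 100% of its pair with the ventricular light chain Myl3. Of 21 skeletal muscle genes, 9 were at 0 in every library and 10, those 9 included, had at most 3 counts in any, while the list summed to 10.3 to 14.7 CPM.

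The myosin heavy chains did not follow that pattern. Myh7, the slow beta-myosin of ventricle and slow skeletal fibers, was at 13.8, 14.5 and 12.0 CPM in RAG1-/- and 22.8, 14.1 and 11.9 CPM in RAG1-/- Sgo1-/+. Its level was steadier than that of Myh6, and the highest library was RAG1-/- Sgo1-/+ replicate 4, one of the low libraries of the set. Myh6 made up 70.1%, 62.5% and 82.2% of the Myh6 and Myh7 counts in RAG1-/- and 61.0%, 58.9% and 70.3% in the other group. The means were 71.6% ± 9.92 against 63.4% ± 6.06 (SD, n=3; exact permutation test, two-sided, P=0.3, adjusted P=1 over 7 pairs). In GRCm38 transcripts 22.6% of the 50-base windows of Myh6 also occur in other genes, Myh7 among them, so that reads may have been divided between the pair. Sln made up 54.9% ± 4.59 of the Sln and Pln counts in RAG1-/- against 55.8% ± 8.87 (SD, n=3; exact permutation test, P=1). Ryr2 made up 71.9% to 95.2% of its pair with the skeletal release channel Ryr1 (exact permutation test, P=0.4). Of the 7 pairs with both genes counted, 0 had groups that did not overlap. Without RAG1-/- Sgo1-/+ replicate 6 there were 2, Myh6 with Myh7 and Ryr2 with Ryr1. Groups separate more readily with fewer libraries, and no share over other gene pairs was computed beside these counts.

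**Figure D4:**
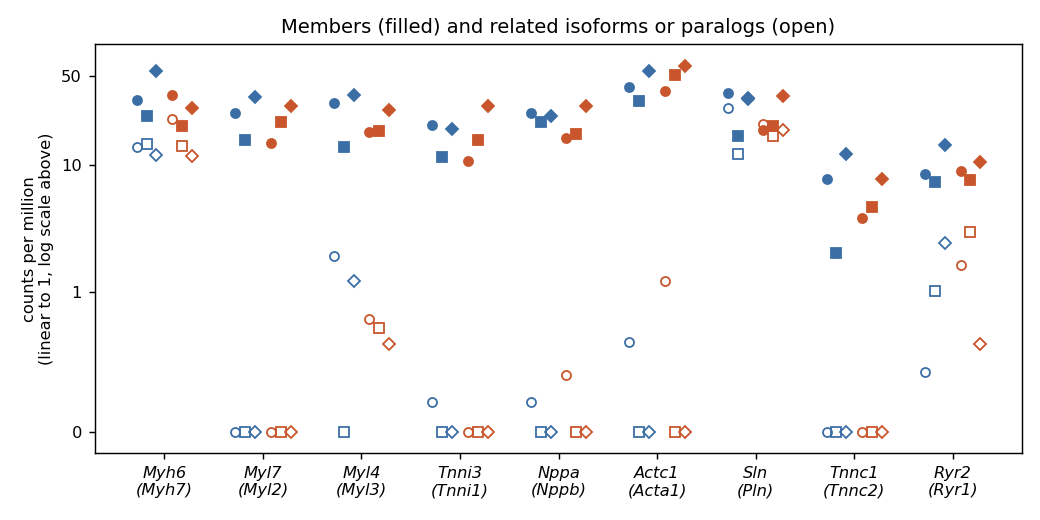
CPM of each gene (filled) and of its related isoform or paralog (open, named in parentheses), with RAG1-/- replicates 1 to 3 in blue and RAG1-/- Sgo1-/+ replicates 4 to 6 in orange, on an axis that is linear up to 1 and logarithmic above. Myl2 and Tnnc2 are at 0 in all 6 libraries, while Pln and Myh7 lie within the range of the 10 genes.

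Composition of the set was compared by taking each gene relative to the summed counts of the other 9. Actc1 made up 16.8%, 20.7% and 18.4% of the 10 genes' counts in RAG1-/- and 22.4%, 27.04% and 21.8% in RAG1-/- Sgo1-/+. All 3 RAG1-/- Sgo1-/+ libraries lay above all 3 RAG1-/- libraries, with a mean difference of 0.44 in log2 units (exact permutation test, two-sided, P=0.1, the smallest possible, and adjusted P=1 over the 10 genes). The other 9 genes overlapped between the groups in this measure. The groups overlapped for Actc1 as well when Myh6 was left out of the sum, where the difference was 0.42. Myl4 and Tnnc1 also had groups apart without the library labelled RAG1-/- replicate 2, and Myh6 did without RAG1-/- Sgo1-/+ replicate 4. No share over other genes was computed for this measure.

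Markers of smooth muscle, which also makes actins, were set beside the Actc1 share, and 0 of 8 were called by edgeR. Summed over 8 markers they were at 106 to 144 CPM in RAG1-/- and 149 to 215 CPM in RAG1-/- Sgo1-/+, and 8 of 8 had a fitted value above 0. The groups were apart for 4 of the 8, all higher in RAG1-/- Sgo1-/+, beside 11.8% of all tested genes. An unadjusted P under 0.05 was found for 3, beside 5.66% of all tested genes, with an adjusted P of 0.832 each. Acta2, the actin of vascular smooth muscle, was at 33.1, 44.0 and 33.7 CPM against 45.3, 66.3 and 73.6 CPM (log2 fold change 0.74). The gap between the highest RAG1-/- and the lowest RAG1-/- Sgo1-/+ library was small, 44.0 against 45.3 CPM. Cnn1, a regulator of smooth muscle contraction, had a log2 fold change of 0.96 and the enteric actin Actg2 one of 1.43. None of the 1424 windows of 50 bases in Actc1 occurs in another gene. The part of smooth muscle RNA in the Actc1 share was not tested.

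**Figure D5:**
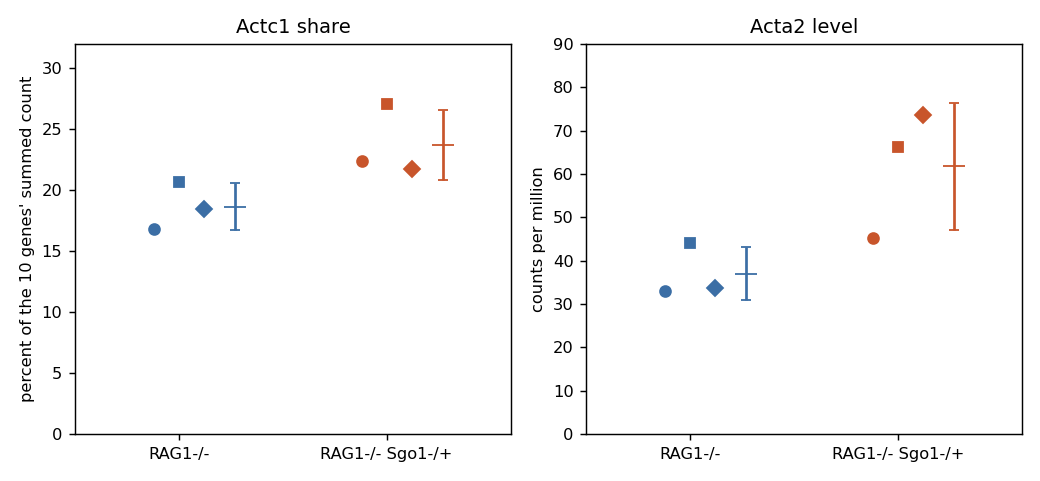
Left, Actc1 as a percent of the 10 genes' summed count, and right, Acta2 in CPM, for RAG1-/- (blue, replicates 1 to 3) and RAG1-/- Sgo1-/+ (orange, replicates 4 to 6), with bars at the mean ± SD (n=3). The Actc1 share is 16.8% to 20.7% in RAG1-/- and 21.8% to 27.04% in RAG1-/- Sgo1-/+.

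Of 26 other structural genes of the sarcomere 24 were tested, 0 were called, and the median log2 fold change was -0.19. At an unadjusted P under 0.05, 0 were lower and 1 was higher, beside 5.66% of all tested genes. The one was Nebl, a nebulin relative of the cardiac Z disc, at 46.0, 32.1 and 37.5 CPM in RAG1-/- and 67.3, 54.5 and 42.4 CPM in the other group, which overlapped it (log2 fold change 0.50, adjusted P=0.832). The groups were apart for 2 of the 24, beside 11.8% of all tested genes, both higher in RAG1-/- Sgo1-/+ and both at low counts. They were Myh7b, with 9, 4 and 6 counts against 9, 16 and 4, and Xirp1, with at most 2 counts in any library, and both were named after their values were seen. Tpm1 and Des, tropomyosin and the filament protein desmin, were the most abundant of the list, and both are also made by smooth muscle.

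Genes of calcium cycling and excitation numbered 21, of which 19 were tested, and their median log2 fold change was -0.076. Cacna1g, a T-type calcium channel, was the 1 gene of the 19 lower at an unadjusted P under 0.05, beside 5.66% of all tested genes in either direction. It had 6, 4 and 4 counts against 0 in each RAG1-/- Sgo1-/+ library. At that depth its adjusted P was 0.832. The groups were apart for 3 of the 19, beside 11.8% of all tested genes, all lower in RAG1-/- Sgo1-/+. They were Cacna1g and, named after their values were seen, Jph2 and Kcna5. For Jph2 the nearest libraries of the groups were at 3.843 and 3.838 CPM. Kcna5 had 14, 2 and 4 counts against 2, 2 and 0, and libraries with 2 counts differed only by their totals. The pump gene Atp2a2 and the connexins Gja1 and Gja5 were the most abundant, and all are made in other lung cells too. Hcn4, the pacemaker channel, had 4 counts in each of 2 libraries and 0 in the other 4.

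Muscle energy metabolism was covered by 13 genes, all tested, with a median log2 fold change of -0.078. Ckmt2, the mitochondrial creatine kinase of striated muscle, had RAG1-/- counts of 34, 16 and 27 against 8, 6 and 4 (log2 fold change -1.45, adjusted P=0.832). Its groups were apart, in contrast to the 10 genes themselves. It was the only 1 of the 13 genes with groups apart, beside 11.8% of all tested genes. Cox8b, a cytochrome oxidase subunit of muscle and brown fat, had 184, 28 and 52 counts against 10, 16 and 22 (log2 fold change -1.58, adjusted P=0.832), and the groups overlapped in CPM. The highest Cox8b library was RAG1-/- replicate 1, the library with the most adipocyte RNA, and 5 of 8 adipocyte markers had an unadjusted P under 0.05 with a fitted value below 0, beside 5.66% of all tested genes. The groups were apart for 1 of the 8, beside 11.8% of all tested genes. Adipoq, the fat cell hormone adiponectin, was at 86.0, 9.29 and 11.5 CPM against 12.5, 7.41 and 4.99 CPM, so that replicate 1 alone stood high and the other libraries overlapped. The part of fat RNA in the Cox8b and Ckmt2 values was not tested.

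Of 16 listed transcription factors of the heart muscle program, 4 had at most 3 counts in every library. Nkx2-5, the homeobox factor of the cardiac lineage, had at most 2 counts in any library. Shox2 had 2 counts, all in 1 library. Tbx5 of the same list had 39 to 128 counts per library. Its level ran from 12.2 CPM in RAG1-/- Sgo1-/+ replicate 6 to 19.4 CPM in the library labelled RAG1-/- replicate 2, the reverse of the order of those libraries in the set. These genes and Hcn4 were named for their known roles after their counts were seen. Of the 16 transcription factors 12 were tested, 0 had an unadjusted P under 0.05, and the median log2 fold change was -0.13. The groups were apart for 1 of the 12, beside 11.8% of all tested genes. This was Tbx20, with 4, 4 and 12 counts against 2, 0 and 0, also named after its values were seen. Its nearest libraries of the 2 groups were at 0.427 and 0.404 CPM. The most abundant were Nr2f2, Tbx3 and Gata6, which other lung cells express.

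The natriuretic peptide system reads out the hormone that Nppa encodes. Npr1, the guanylyl cyclase receptor of atrial natriuretic peptide, was at 103, 134 and 142 CPM in RAG1-/- and 127, 129 and 119 CPM in the other group, a log2 fold change of -0.016, with the groups overlapping. Pde5a, which breaks down the cyclic GMP made by that receptor, was at 139, 163 and 133 CPM against 134, 113 and 102 CPM (log2 fold change -0.32, adjusted P=0.832). It was the 1 of 8 tested genes with an unadjusted P under 0.05, beside 5.66% of all tested genes. Bmp10, a ligand made by atrial myocytes, was at 0 in every library. The other 6 tested genes had fitted values above 0, and the median of the list was 0.26. Furin, a convertase, had a log2 fold change of 0.28. Npr3, the clearance receptor, was at 75.4, 57.8 and 58.4 CPM against 197, 100.03 and 28.4 CPM (log2 fold change 0.77), and so held both the highest and the lowest library in RAG1-/- Sgo1-/+. Corin, the protease that activates atrial natriuretic peptide, was at 2.12 to 4.24 CPM in 5 libraries and at 20.6 CPM in RAG1-/- Sgo1-/+ replicate 6 (log2 fold change 1.44, adjusted P=0.832). The groups overlapped for all 8, and Npr3 and Corin were named after their values were seen.

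Markers of other cell types that could come with a vein or hilum were summed beside the set. Airway cartilage genes reached 3.12 CPM at the most, in RAG1-/- Sgo1-/+ replicate 6, and were at 0 in RAG1-/- replicates 1 and 3. Mesothelial markers were at 348 CPM in RAG1-/- replicate 1 and 537 to 1263 CPM elsewhere, with 0 of 5 genes at an unadjusted P under 0.05. Endothelial markers ran from 1242 CPM in RAG1-/- Sgo1-/+ replicate 6 to 1572 CPM in the library labelled RAG1-/- replicate 2, the reverse of the order of those libraries in the set. The nerve genes Th and Dbh were at 0, and the nerve list was at 7.26 to 10.6 CPM. Of these lists, 0 genes of the endothelial, mesothelial and nerve lists passed an unadjusted P of 0.05, and 1 of the 8 lung epithelial genes did (Foxj1, log2 fold change 0.58). The share over all tested genes was 5.66%.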

How the data were processed

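RNA-seq was made from total RNA of normal-looking lung, 3 RAG1-/- and 3 RAG1-/- Sgo1-/+ libraries (TruSeq V2, MiSeq). The authors deposited whole-number read counts per gene without normalization, which per the file headers were made with GeneSifter on an earlier mouse genome build. The submitters' processing notes name BWA and edgeR. The treatment of reads mapping to several genes is not given in the sources used here, and the library kit does not mark strand. A second deposited file with the authors' group means, ratios and p-values of their own comparison was not used. Of the values from 1 to 19 counts, 79.8% were even, as could arise if both reads of many pairs were counted. The counting unit is not given in the sources used here. Each library's counts stood in a pair of columns, identical in all 6 libraries, and the first of each pair was used. Apart from these copies no columns of values were unmapped (0). A symbol was found through the Entrez identifier for 24048 of 25860 genes (93.0%).

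Samples were grouped by their labels. Genes with at least 10 counts in all were compared by edgeR 4.0.16 (quasi-likelihood F test, R 4.3.3). Library size was the column total, with a prior count of 0.125 and Benjamini-Hochberg adjustment over all genes tested. A call needed an adjusted P under 0.05 and a 2-fold difference. CPM are counts scaled to the library total of 3205822 to 9366774, where 3 counts are 0.320 to 0.936 CPM. P-values set the difference between the groups against the variation between these libraries. With 1 library per mouse, differences between mice and between library preparations cannot be told apart. Two-sided exact permutation tests (scipy 1.17.1) were used for shares and single values. Exon lengths came from GENCODE M21 on GRCm38 and promoters from RefSeq on GRCm38.p6, and neither is the build of the counts. The test was also run on simulated counts, whose outcome is not given here.

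Alternatives were TMM and DESeq2 size factors, other filters, DESeq2 1.42.0, limma 3.58.1 with voom and each library left out, and, chosen after seeing the data, halved counts and leaving out replicates 2 and 6 together. The members and lists were chosen with earlier results of these data known. Genes named were the 10 members, Sgo1 and Rag1, the paired isoforms, in each other list up to 5 genes with the lowest unadjusted P under 0.05 and the 3 with the highest mean CPM, and the 10 genes nearest in pattern (log2 CPM, prior of 0.5 counts). Rag1 counts were 24, 10 and 16 (RAG1-/-) against 12, 8 and 8. The other genes named from the lists, among them Igkc, were chosen after their values were seen. An item withheld from the text is not reported here.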

Additional observations from a re-analysis of the deposited data

How the results depend on the processing

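Over 140 log2 fold changes of the 10 genes under alternatives, 128 kept their direction, 12 turned and none passed the adjusted threshold (adjusted P 0.637 to 0.9999). Tnni3 turned to -0.13 with limma-voom, -0.14 without replicate 2, -0.39 without replicate 6 and -0.60 without both. Tnnt2 turned to 0.14 without replicate 1, 0.031 without replicate 3, 0.30 without replicate 4 and 0.0038 without replicate 5. Without replicate 3, Myl7 (0.043), Ryr2 (0.17) and Tnnc1 (0.078) turned. Over the leave-one-out fits Tnnt2 ran from -0.49 to 0.30, Tnni3 from -0.39 to 0.35, Myl7 from -0.47 to 0.043, Ryr2 from -0.34 to 0.17, Tnnc1 from -0.89 to 0.078, Myh6 from -0.64 to -0.022, Myl4 from -0.65 to -0.11, Nppa from -0.52 to -0.065, Sln from -0.57 to -0.045 and Actc1 from 0.058 to 0.44. The cause was not tested.

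Leaving out each library in turn gave 0 to 1 genes called in the table (H2-K1, without replicate 5), 571 to 1420 genes at an unadjusted P under 0.05, and 0 to 1 of the 10 genes at that level or with groups apart. The median of the 10 fold changes ran from -0.48 to 0.037, the number with relative levels apart from 1 to 3, and the number of isoform pairs apart from 0 to 2. No share over all genes was computed for groups apart with a library left out. DESeq2 called 1 gene, Awat1. With the most abundant other gene left out of the sum, 0 relative levels were apart.

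Without replicates 2 and 6 together, chosen after seeing the data, 611 genes and 5 of the 10 had an unadjusted P under 0.05, the median of the 10 was -0.66, and Actc1 turned to -0.090. Replicate 2 was the lowest library for 5 of the 10 genes and replicate 6 the highest for 4, so that removing both lowers the fold changes by construction. No paired analysis was possible because replicates 1 to 3 and 4 to 6 share no number. With 3 libraries per group, intervals of the fold changes span from -1.69 to 0.86.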
